A study of Mus musculus with 2 samples.

Results

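The mRNA of 10 genes of the Bcl2 family was followed through the cell types of the E14.5 mouse fetal liver, in IκBα WT and KO embryos. The genes were taken from a given list, and all 10 were found in both count tables, which hold 32285 genes. They are the pro-survival genes Bcl2, Bcl2l1 (encoding BCL-XL), Mcl1, Bcl2a1b and Bcl2a1d (both encoding A1), the BH3-only genes Bcl2l11 (encoding BIM), Bbc3 (encoding PUMA) and Pmaip1 (encoding NOXA), and the effector genes Bax and Bak1.

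Bcl2 family proteins decide whether the outer mitochondrial membrane stays closed. BAX and BAK can form pores in it, which release cytochrome c and start the caspase cascade, pro-survival members bind and restrain them, and BH3-only proteins counter the pro-survival members or engage the effectors directly. In blood formation, MCL1 is known to be needed by stem cells, BCL-XL by erythroblasts and platelets, and BCL2 by lymphoid cells. Several of these genes, among them Bcl2a1 copies and Bcl2l1, are known NF-κB targets, and IκBα holds NF-κB factors back.

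Fetal livers of the CD1 stock, with no treatment in either group, were depleted of lineage-positive cells and sorted for LSK cells, which are lineage-negative, SCA1-positive and cKIT-positive progenitors. The sample titles name LT-HSCs instead, and the cells are taken here as LSK cells. A single droplet library came from 2 pooled WT embryos and another from 3 pooled embryos lacking IκBα (encoded by Nfkbia) in every cell, obtained by mating heterozygous carriers. With 1 library per genotype no test between genotypes was possible, every value is printed for each library, and the 95% intervals cover counting error only. Embryos within a pool could not be used as replicates.

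After filtering, 3458 WT cells (median 28065 UMIs) and 4417 KO cells (median 19560 UMIs) remained, where a UMI marks an RNA molecule captured from the cell. The libraries shared 7 barcodes. Nfkbia had 1478 UMIs in the library labelled WT and 7 UMIs in the library labelled KO. Y-linked UMIs without Xist marked 0.116% of cells in the WT and 17.4% in the KO library, and some values are also given for female cells (Xist without Y-linked UMIs).

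Cells were assigned to 13 cell types by their marker genes, which left 1283 WT and 1563 KO cells ungated. The limits of these gates were set with the data in view, and 1485 cells lay close to a limit. Of 39 markers that the gates had not used, 23 were highest in their own type. The labelled LSK phenotype was not that of all cells. Ly6a, which encodes SCA1, was at 34.5 CPM in WT and 50.7 in KO stem-like cells but at 0.206 and 0.183 CPM in erythroid progenitor-like cells, and Kit, which encodes cKIT, was at 4.39 and 6.15 CPM in erythroblast-like cells. Dntt, a lymphoid marker, had 0 UMIs in WT and 2 UMIs in KO lymphoid-primed-like cells, so that this name rests on the other markers, Flt3, Satb1, Lsp1 and Il12a. The cells gated as late neutrophil-like carried the stem cell gene Hlf at 110.7 and 71.8 CPM and had no UMI of the neutrophil collagenase gene Mmp8, so this is used only as the name of a gate. Lymphoid-primed-like cells also carried Hlf, at a level somewhat below that of this gate in WT and somewhat above it in KO. In both libraries their Hlf level lay below that of stem-like cells. The comparisons of stem-like with lymphoid-primed-like cells below are thus between types that both carry this gene. Of the markers kept apart, 0 of 3 were highest in their own type for early neutrophil-like, late neutrophil-like and monocyte/dendritic-like cells. In the last, Cx3cr1, Ly6c2 and Id2 ranked 2, 3 and 4 of the 13 types, while 5 of the 7 gate markers, Irf8 among them, were highest there and Csf1r and Ctss were higher in macrophage-like cells, so that this name rests on the gate markers. Erythroid progenitor-like cells passed by a narrow margin, with 704 of 1006 close to a limit. Stem-like cells were shallower than other progenitors, 293 in WT at a median of 14136 UMIs and 280 in KO at a median of 9292.

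All levels are CPM, the UMIs of a gene per 1000000 UMIs summed over the cells of a type. They are compared for a gene across cell types and between libraries, not between genes. In erythroblast-like cells, haemoglobin mRNAs took 27.6% of WT and 29.0% of KO UMIs, which lowers the CPM of every other gene there.

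The use of Bcl2, Mcl1 and Bcl2l1 by lineage was examined first, as the share that each gene took of the UMIs of the 3 genes. Mcl1 held between 73.3% and 92.0% of these UMIs in every cell type, both libraries together, and the remainder divided differently between lineages. In stem-like cells, Bcl2 took 13.2% (10.7 to 15.9) of 684 UMIs in WT and 15.5% (12.4 to 19.1) of 471 in KO, and Bcl2l1 took 9.80% and 9.77%. In monocyte/dendritic-like cells the Bcl2 share was 18.8% (16.0 to 21.9) in WT and 21.3% (17.5 to 25.5) in KO, beside Bcl2l1 shares of 6.60% and 4.40%.

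In the erythroid lineage the Bcl2 share was lower than in stem-like cells. In erythroid progenitor-like cells, Bcl2 took 2.50% (1.92 to 3.19) in WT and 1.64% (1.15 to 2.28) in KO, Bcl2l1 took 5.60% (4.73 to 6.58) and 6.33% (5.34 to 7.45), and Mcl1 took 91.9% and 92.0%. In erythroblast-like cells the Bcl2 share was 0.479% (0.193 to 0.984) in WT and 0.843% (0.462 to 1.41) in KO, whereas the Bcl2l1 share was 13.9% (12.2 to 15.8) and 14.8% (13.1 to 16.6). Without the cells marked by the doublet caller Scrublet, the Bcl2 share of erythroblast-like cells was 0.0759% in WT and 0.0696% in KO. The Bcl2l1 share was higher in erythroblast-like than in erythroid progenitor-like cells, with intervals apart in each library. In megakaryocyte-like cells Bcl2l1 took 15.9% (12.6 to 19.7) in WT and 20.5% (17.4 to 23.7) in KO, and Bcl2 took 6.82% and 4.09%.

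**Figure D1:**
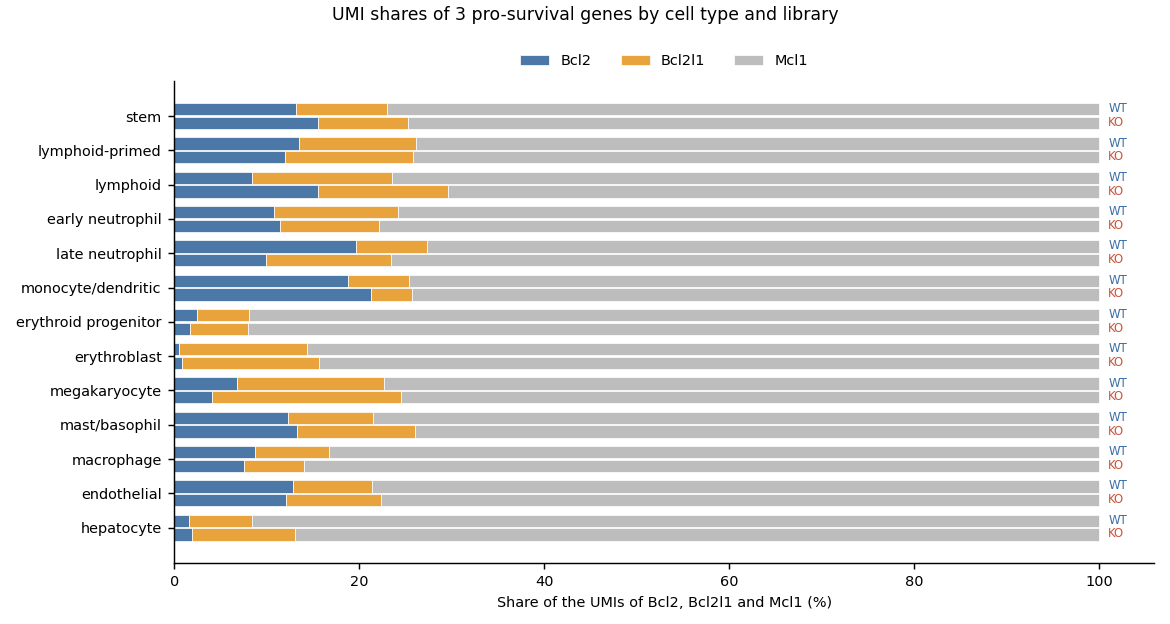
Horizontal stacked bars give the share (in percent, x axis) of Bcl2, Bcl2l1 and Mcl1 among the UMIs of the 3 genes in each of 13 cell types, WT above KO. Mcl1 fills most of every bar, the Bcl2 segment is widest in monocyte/dendritic-like KO cells (21.3%) and nearly absent in erythroblast-like cells (0.479% in WT), and the Bcl2l1 segment reaches 20.5% in megakaryocyte-like KO cells.

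The UMI ratio of Bcl2 to Bcl2l1 was compared across cell types only. It was 2.85 (2.03 to 4.06) in WT and 4.84 (2.93 to 8.41) in KO monocyte/dendritic-like cells. The ratio was 1.34 (0.968 to 1.87) and 1.59 (1.08 to 2.35) in stem-like cells. It was 0.446 (0.325 to 0.606) and 0.259 (0.173 to 0.378) in erythroid progenitor-like cells, and 0.0345 (0.0137 to 0.0723) and 0.0571 (0.0308 to 0.0977) in erythroblast-like cells. The order monocyte/dendritic, stem, erythroid progenitor, erythroblast was the same in both libraries, and in each library the intervals of stem-like and erythroid progenitor-like cells did not overlap.

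Bcl2, the founding pro-survival member (ENSMUSG00000057329, protein-coding, GRCm38 chr1:106538178-106714274, minus strand), was the member with the widest range among those with a UMI in every cell type. Its highest level was 45.5 times the lowest over both libraries together, or 32.2 times with haemoglobin, mitochondrial and ribosomal protein genes left out of the totals. It was highest in monocyte/dendritic-like cells, at 34.8 CPM (29.2 to 41.3) in WT and 40.6 (32.8 to 49.8) in KO, followed by endothelial-like cells at 28.3 and 27.3 CPM. Stem-like cells had 20.5 CPM (16.5 to 25.2; 90 UMIs) in WT and 24.2 (18.9 to 30.4; 73 UMIs) in KO. Both libraries thus placed stem-like cells below monocyte/dendritic-like cells, 1.70-fold (1.29 to 2.24) in WT and 1.68-fold (1.22 to 2.32) in KO.

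Stem-like and lymphoid-primed-like cells were close. Bcl2 was at 18.3 CPM (15.6 to 21.3) in WT and 16.8 (13.9 to 20.1) in KO lymphoid-primed-like cells. The stem-like level was 1.12-fold that (0.858 to 1.46) in WT, an interval that includes 1, and 1.44-fold (1.06 to 1.95) in KO. Early neutrophil-like cells, at 12.97 and 13.98 CPM, lay below stem-like cells in both libraries, 1.58-fold (1.16 to 2.17) in WT and 1.73-fold (1.23 to 2.42) in KO.

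Erythroid cells had little Bcl2. Erythroid progenitor-like cells had 3.19 CPM (2.45 to 4.09; 62 UMIs) in WT and 2.13 (1.48 to 2.96; 35 UMIs) in KO, against which stem-like cells were 6.43-fold (4.60 to 9.04) and 11.4-fold (7.48 to 17.5) higher. In erythroblast-like cells it was at 0.591 CPM (7 UMIs) in WT and 1.00 (14 UMIs) in KO. Stem-like cells were 34.7-fold (16.2 to 88.8) and 24.1-fold (13.5 to 46.3) higher than these, or 26.1-fold and 17.7-fold without haemoglobin, mitochondrial and ribosomal protein genes. Of the 21 UMIs in erythroblast-like cells, 19 lay in the 84 of 1293 cells that Scrublet had marked, and 2 in all others.

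Over both libraries together, only 1 step in the order of the 13 cell types separated neighbours whose intervals did not overlap, that from megakaryocyte-like cells (9.10 CPM) down to erythroid progenitor-like cells (2.71 CPM). Hepatocyte-like cells, which should hold little Bcl2 and serve as a measure of free RNA, had 1.96 CPM in WT and 2.38 in KO and could not be told apart from erythroid progenitor-like cells. With every cell thinned to 8500 UMIs, 15.8% (11.7 to 20.8) of 265 WT and 22.5% (16.4 to 29.5) of 169 KO stem-like cells had a Bcl2 UMI, compared with 26.3% and 22.1% unthinned. In hepatocyte-like cells thinned in the same way (median 40081.5 UMIs in WT and 28013 in KO) it was 0 of 38 WT cells (interval up to 9.25%) and 1 of 68 KO cells (1.47%, up to 7.92%). Of erythroid progenitor-like cells (medians 41989.5 and 28229 UMIs), 2.95% in WT and 1.64% in KO had a UMI. With so few hepatocyte-like cells these shares could not be told apart from theirs, which does not make them free RNA. The stem-like intervals lay above both upper limits. Thinning left out 28 WT and 111 KO stem-like cells that were too shallow.

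Mcl1, whose protein has a short half-life (ENSMUSG00000038612, protein-coding, chr3:95658788-95663176, plus strand), was the most even of the 10 genes. Its level ran from 90.95 CPM in early neutrophil-like to 172.9 CPM in endothelial-like WT cells and from 95.4 to 174.7 CPM in the same types in KO, a 1.87-fold range over both libraries together. No neighbours in its order of cell types had separate intervals. Stem-like cells had 120.2 CPM (110.2 to 130.9) in WT and 116.5 (104.7 to 129.4) in KO, and erythroid progenitor-like cells had 117.4 and 119.4 CPM, a ratio of 1.02 (0.930 to 1.13) in WT and 0.976 (0.869 to 1.09) in KO. Erythroblast-like cells, at 105.7 and 100.2 CPM, ranked 11 of 13, but ranked 3 once haemoglobin, mitochondrial and ribosomal protein genes were left out, so that the place of this type depends on the scaling.

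Bcl2l1 (ENSMUSG00000007659, protein-coding, chr2:152780668-152831728, minus strand) encodes BCL-XL, known for keeping platelets and maturing erythroblasts alive. Of the motifs searched in the promoters of the members, the GATA motif AGATAA was found in Bcl2l1 alone. The motifs were AGATAA, the STAT motif TTCNNNGAA and the κB consensus of NF-κB, on both strands of the RefSeq promoters of GRCm38.p6, which run from 250 bases before to 50 after an annotated start. A promoter was searched for 9 of the 10 members, and Pmaip1 was not searched. Of 32817 promoters of this length, 11.2% hold AGATAA, 8.29% the STAT motif and 8.46% the κB consensus, so that a match is common and says nothing of binding. The matches of Bcl2l1 are shown because GATA factors act in erythroid and megakaryocytic cells and IκBα restrains NF-κB. They lie within the annotated gene in different promoters of the 3 given, the GATA match 41 bases and the κB match 242 bases before the start. The motif is in capitals, and the strand of the gene is shown.
Bcl2l1, GATA motif, chr2:152828515-152828540, minus strand: tgtgacccaaAGATAAagagagcaga
Bcl2l1, κB consensus, chr2:152830940-152830967, minus strand: tgtttgtgGGGGGTCTCCagcatacgcc
No promoter searched of Bcl2, Mcl1, Bcl2a1b, Bcl2a1d, Bcl2l11, Bax or Bak1 held any of the 3 motifs.

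Bcl2l1 was highest in megakaryocyte-like cells, at 30.4 CPM (23.7 to 38.4) in WT and 34.0 (28.5 to 40.3) in KO, and over both libraries its interval there was apart from that of the next type. It was lowest in erythroid progenitor-like cells, at 7.16 CPM (6.02 to 8.45) in WT and 8.22 (6.89 to 9.725) in KO. Erythroblast-like cells had 17.2 CPM (14.9 to 19.7) in WT and 17.5 (15.4 to 19.9) in KO. Within the erythroid lineage the level was therefore 2.40-fold (1.92 to 3.00) higher in erythroblast-like cells in WT and 2.13-fold (1.72 to 2.65) higher in KO, and 3.33-fold and 3.02-fold without haemoglobin, mitochondrial and ribosomal protein genes.

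Stem-like cells lay between these levels of Bcl2l1, at 15.3 CPM (11.9 to 19.4) in WT and 15.2 (11.2 to 20.3) in KO. This was 2.14-fold (1.57 to 2.88) above erythroid progenitor-like cells in WT and 1.85-fold (1.30 to 2.61) in KO. Megakaryocyte-like cells were 1.99-fold (1.40 to 2.83) above stem-like cells in WT and 2.24-fold (1.59 to 3.20) in KO. In monocyte/dendritic-like cells, where Bcl2 was highest, Bcl2l1 ranked 12 of 13, at 12.2 CPM (8.98 to 16.25) and 8.39 CPM (5.05 to 13.1).

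The A1 copies Bcl2a1b (ENSMUSG00000089929, chr9:89199209-89207827, plus strand) and Bcl2a1d (ENSMUSG00000099974, chr9:88723285-88731914, minus strand) are near-identical protein-coding genes, and their counts are uncertain one by one. Of 411 windows of 90 bases in the last 500 bases of the transcript, 162 (39.4%) of Bcl2a1b and 268 (65.2%) of Bcl2a1d also occurred in another copy, and the promoters of both shared 247 of the 250 bases that could be aligned, beside 100 gap positions. Reads that fit several genes equally well are not counted by Cell Ranger by default, so the sum over the 4 copies in the tables is given first and may still be too low. Of the 4, Bcl2a1c had no UMI in any cell type.

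A1 mRNA was concentrated in monocyte/dendritic-like and macrophage-like cells. The sum of the copies was 33.5 CPM (28.0 to 39.9; 129 UMIs) in WT and 37.1 (29.6 to 45.9; 84 UMIs) in KO monocyte/dendritic-like cells. Macrophage-like cells followed at 14.2 CPM (9.37 to 20.7) and 17.7 CPM (12.6 to 24.2), and over both libraries each of these intervals was apart from that of the next type. Stem-like cells had 3.19 CPM (14 UMIs) in WT and 3.64 (11 UMIs) in KO. In erythroid progenitor-like cells neither library held a UMI of any copy, for which a floor of 3 UMIs lay at 0.154 CPM in WT and 0.183 in KO.

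Bcl2a1b gave most of these UMIs, at 17.4 CPM (13.5 to 22.1) in WT and 18.6 (13.4 to 25.1) in KO monocyte/dendritic-like cells and had 19 UMIs in WT (10.01 CPM) and 33 UMIs in KO in macrophage-like cells. It had 0 UMIs in both libraries in erythroid progenitor-like, megakaryocyte-like and mast/basophil-like cells. Bcl2a1d was at 6.24 CPM (3.999 to 9.29) in WT and 8.39 (5.05 to 13.1) in KO monocyte/dendritic-like cells. In macrophage-like cells Bcl2a1d had 3 UMIs in WT and 1 in KO, and in stem-like cells 5 UMIs were counted in WT but 0 in KO, with a KO floor of 0.993 CPM.

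Among the BH3-only genes, Bcl2l11 (ENSMUSG00000027381, protein-coding, chr2:128126038-128162547, plus strand) encodes BIM, which binds all pro-survival members. It was highest in endothelial-like cells, at 32.2 CPM (23.1 to 43.7) in WT and 20.02 (13.8 to 28.1) in KO. Erythroid progenitor-like cells had 11.1 CPM (9.64 to 12.7) and 13.1 CPM (11.4 to 14.96), while stem-like cells had 4.79 CPM (2.97 to 7.32) and 3.97 CPM (2.05 to 6.94). Erythroid progenitor-like cells were thus 2.31-fold (1.47 to 3.81) above stem-like cells in WT and 3.29-fold (1.85 to 6.47) above them in KO. They were also 2.22-fold (1.66 to 3.02) and 1.99-fold (1.55 to 2.57) above erythroblast-like cells, or 1.60-fold and 1.40-fold without haemoglobin, mitochondrial and ribosomal protein genes. Erythroid progenitor-like cells, in which Bcl2 and Bcl2l1 were low, thus ranked 3 of 13 for Bcl2l11, after endothelial-like and macrophage-like cells and with an interval that overlapped the latter.

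Bbc3 (ENSMUSG00000002083, protein-coding, chr7:16308393-16318205, plus strand) encodes PUMA, a p53 target. A κB consensus lay 137 bases before 1 of its 3 annotated starts and matches the consensus on both strands, with a further overlapping match 1 base on. It lies within the annotated gene and is shown, in capitals, as the other match of this motif among the members.
Bbc3, κB consensus, chr7:16309436-16309465, plus strand: tctggctgccGGGAAACCCCccgcgccgag

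Bbc3 was higher in stem-like cells than in the other progenitors named here. It was at 10.7 CPM (7.88 to 14.3; 47 UMIs) in WT and 16.2 (12.0 to 21.45; 49 UMIs) in KO stem-like cells, and at 2.92 CPM (1.91 to 4.28; 26 UMIs) in WT and 6.42 (4.66 to 8.62; 44 UMIs) in KO lymphoid-primed-like cells. The stem-like level was 3.68-fold (2.23 to 6.18) higher in WT and 2.53-fold (1.65 to 3.89) higher in KO. Early neutrophil-like cells had 3.61 and 2.83 CPM, erythroid progenitor-like cells 3.40 and 4.504 CPM and erythroblast-like cells 3.46 and 4.36 CPM, which places all of these below the stem-like interval of their library. Endothelial-like cells, at 13.4 and 15.8 CPM, overlapped with stem-like cells. So did late neutrophil-like (12.1 and 10.3 CPM), megakaryocyte-like (8.69 and 11.4 CPM), hepatocyte-like (7.35 and 12.7 CPM) and macrophage-like cells (5.27 and 10.45 CPM). Mast/basophil-like cells (8.29 and 4.53 CPM) overlapped in WT only, and lymphoid-like cells (2.47 and 6.60 CPM) in KO only. The level was thus not particular to stem-like cells, and no neighbours in the order of cell types had separate intervals.

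Pmaip1 (ENSMUSG00000024521, protein-coding, plus strand of chromosome 18) encodes NOXA, which binds MCL1 and A1. It was counted mainly in macrophage-like cells, at 8.43 CPM (4.82 to 13.7) in WT and 9.54 (5.91 to 14.6) in KO, and in monocyte/dendritic-like cells, at 7.02 CPM (4.63 to 10.2) and 12.4 CPM (8.22 to 17.9). Early neutrophil-like cells had 3.94 and 2.65 CPM. Stem-like cells had 0 UMIs in WT, with a floor of 0.684 CPM, and 2 UMIs in KO. Erythroid progenitor-like cells held 0 UMIs in WT but 1 in KO. Pmaip1 was thus highest where A1 mRNA was, apart from mast/basophil-like cells, which had 10 UMIs of Pmaip1 in WT and 2 in KO but none of A1. Over 26 points (13 cell types in 2 libraries) the log2(CPM + 1) of Pmaip1 had a Pearson r of 0.64 with Bcl2a1b and 0.67 with Bcl2a1d, as a description of points that share libraries.

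The effectors followed a different order. Bax (ENSMUSG00000003873, protein-coding, chr7:45461697-45466898, minus strand) was at 201.2 CPM (195.0 to 207.6) in WT and 203.8 (197.0 to 210.8) in KO erythroid progenitor-like cells, and at 122.3 CPM (112.1 to 133.1) and 131.1 CPM (118.5 to 144.7) in stem-like cells. The erythroid progenitor-like level was 1.65-fold (1.503 to 1.80) higher in WT and 1.56-fold (1.40 to 1.73) higher in KO. Erythroblast-like cells had 106.3 and 113.6 CPM. This was the lowest of the 13 types, whereas hepatocyte-like cells were lowest with haemoglobin, mitochondrial and ribosomal protein genes left out. Macrophage-like cells had 201.7 CPM in WT and 251.8 in KO, and endothelial-like cells 224.0 and 231.7 CPM.

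Bak1 (ENSMUSG00000057789, protein-coding, chr17:27019810-27029009, minus strand) was at 68.4 CPM (60.4 to 77.2) in WT and 63.6 (53.6 to 74.9) in KO monocyte/dendritic-like cells, against 40.4 CPM (34.6 to 46.8) and 36.4 CPM (29.9 to 43.9) in stem-like cells. This difference was 1.69-fold (1.40 to 2.06) in WT and 1.75-fold (1.35 to 2.26) in KO. Bak1 was at 48.5 and 48.3 CPM in erythroid progenitor-like cells and at 18.2 and 20.6 CPM in erythroblast-like cells, a 2.67-fold (2.30 to 3.12) difference in WT and a 2.35-fold (2.05 to 2.69) difference in KO. Without haemoglobin, mitochondrial and ribosomal protein genes it was 1.92-fold and 1.66-fold. For Bax the same pair differed 1.89-fold and 1.79-fold, and 1.36-fold and 1.27-fold under that scaling.

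**Figure D2:**
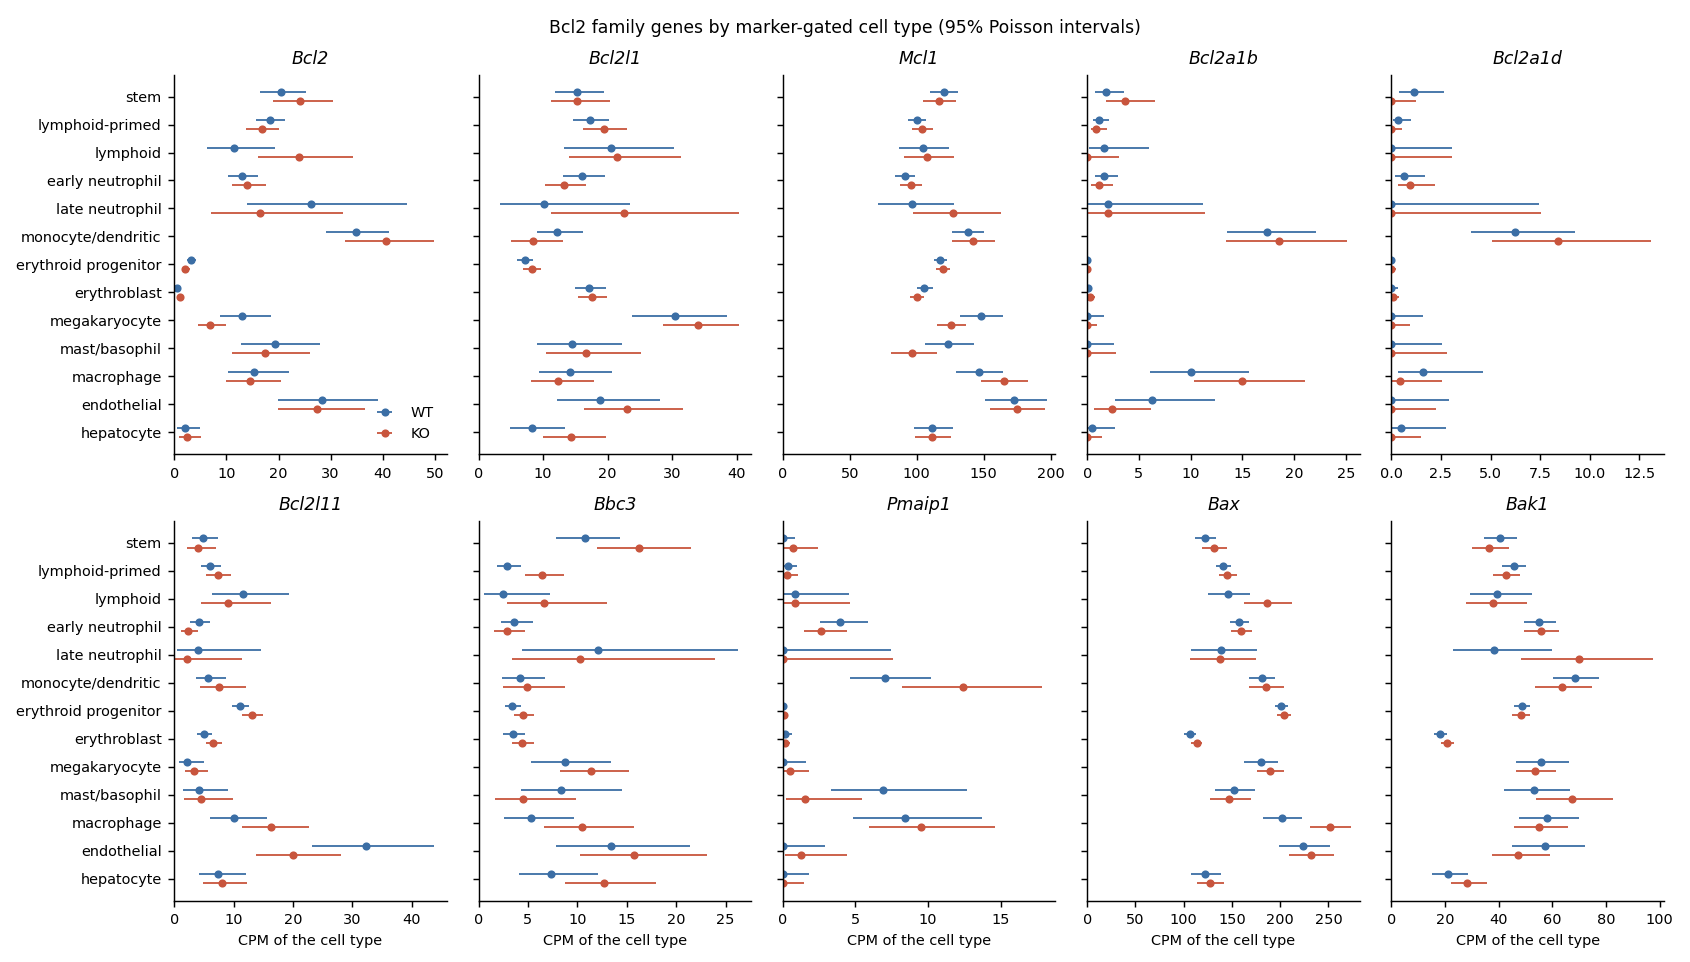
Each panel shows a gene, with CPM of the cell type on the x axis (linear, starting at 0, a scale of its own in each panel), 13 cell types on the y axis, WT in blue and KO in red, and bars for 95% Poisson intervals. WT and KO points lie close in most rows, Bcl2 is near 0 in erythroid progenitor, erythroblast and hepatocyte rows, and the A1 copies and Pmaip1 stand out in monocyte/dendritic and, for Bcl2a1b and Pmaip1, macrophage rows.

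Whether loss of IκBα went with other levels of these genes was examined next. Over whole libraries, Mcl1 was at 113.1 CPM in WT and 114.2 in KO, Bcl2 at 8.95 and 8.64 CPM, Bcl2l1 at 12.7 and 13.8 CPM and Bcl2l11 at 7.43 and 8.70 CPM. Bbc3 was at 4.51 CPM (4.12 to 4.93) in WT and 5.94 (5.46 to 6.43) in KO, a log2 KO/WT of 0.39 (0.22 to 0.57), or 0.46 in female cells. Inside the KO library, Bbc3 was at 6.18 CPM in female and 4.56 CPM in male cells. This is a log2 male/female of -0.44 (-0.80 to -0.09), and the male level lay close to that of the WT library. The log2 KO/WT was -0.05 (-0.19 to 0.08) for Bcl2 and 0.014 (-0.02 to 0.05) for Mcl1, and both had the other sign in female cells, at 0.029 and -0.016. Intervals also left out 0 for Bcl2l11, at 0.23 (0.087 to 0.37), Bcl2l1, at 0.12 (0.009 to 0.23), and Bax, at 0.038 (0.008 to 0.069). In female cells that of Bax included 0, at 0.021 (-0.013 to 0.056). The remaining members had intervals that included 0, with Bcl2a1d at -0.46 (-1.17 to 0.24). Bbc3 had the largest whole-library difference upwards among the 10 genes, and these totals also carry any difference in the mix of cell types.

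Within cell types, members with enough UMIs were compared first. In stem-like cells 5 of the 10 genes had at least 100 UMIs in both libraries together (Bcl2, Bcl2l1, Mcl1, Bax and Bak1), and 0 of these differed by 0.32 or more on the log2 scale, the size taken here as a difference. Of all 6818 genes with as many UMIs in these cells, 5.44% were by at least that much higher and 7.33% by at least that much lower in KO. The log2 KO/WT was -0.045 (-0.24 to 0.15) for Mcl1, 0.24 (-0.23 to 0.70) for Bcl2, -0.01 (-0.58 to 0.56) for Bcl2l1, 0.10 (-0.09 to 0.29) for Bax and -0.15 (-0.51 to 0.20) for Bak1. Each of these intervals includes 0. With gates on cells thinned to 8500 UMIs the value of Bcl2 was 0.61 (-0.01 to 1.23), which is past this size with an interval that includes 0. In the comparison of all cells, the intervals of Mcl1 and Bax lie within 0.32 on both sides, and those of the other 3 genes reach past it.

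The members were also summed by role in stem-like cells. The pro-survival members together were at 159.0 CPM (147.4 to 171.3) in WT and 159.6 (145.6 to 174.5) in KO. The effectors were at 162.7 CPM (150.9 to 175.0) and 167.5 CPM (153.2 to 182.8), and the BH3-only genes, mostly Bbc3, at 15.5 CPM (12.1 to 19.7) and 20.9 CPM (16.0 to 26.7). All 3 pairs of intervals overlap.

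In lymphoid-primed-like cells 0 of 6 members with 100 UMIs were past this size, beside 6.33% of all genes upwards and 3.99% downwards. In early neutrophil-like cells it was 0 of 5 members, beside 8.28% and 4.22%, and in monocyte/dendritic-like cells 0 of 5, beside 8.21% and 7.88%. In female monocyte/dendritic-like cells Bcl2 was past it, at 0.36 (-0.06 to 0.78), against 0.22 (-0.18 to 0.62) in all cells of the type. Bcl2l1 in early neutrophil-like cells was at -0.28 (-0.75 to 0.17) in all cells and past this size downwards in female cells, at -0.56 (-1.15 to -0.00064). In erythroid progenitor-like cells 1 of 6 members, Bbc3, was past this size upwards, beside 5.43% of all genes upwards and 2.31% downwards. In erythroblast-like cells 2 of 6, Bcl2l11 and Bbc3, were past it upwards, beside 8.25% and 3.72%. With 5 or 6 members counted in a type, such shares cannot be told from the background.

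The median log2 KO/WT of the members counted was -0.01 in stem-like cells against 0.01 for all genes, 0.05 against 0.03 in lymphoid-primed-like, 0.02 against 0.04 in early neutrophil-like and 0.04 against 0.02 in monocyte/dendritic-like cells. It was 0.11 against 0.03 in erythroid progenitor-like and 0.14 against 0.02 in erythroblast-like cells.

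**Figure D3:**
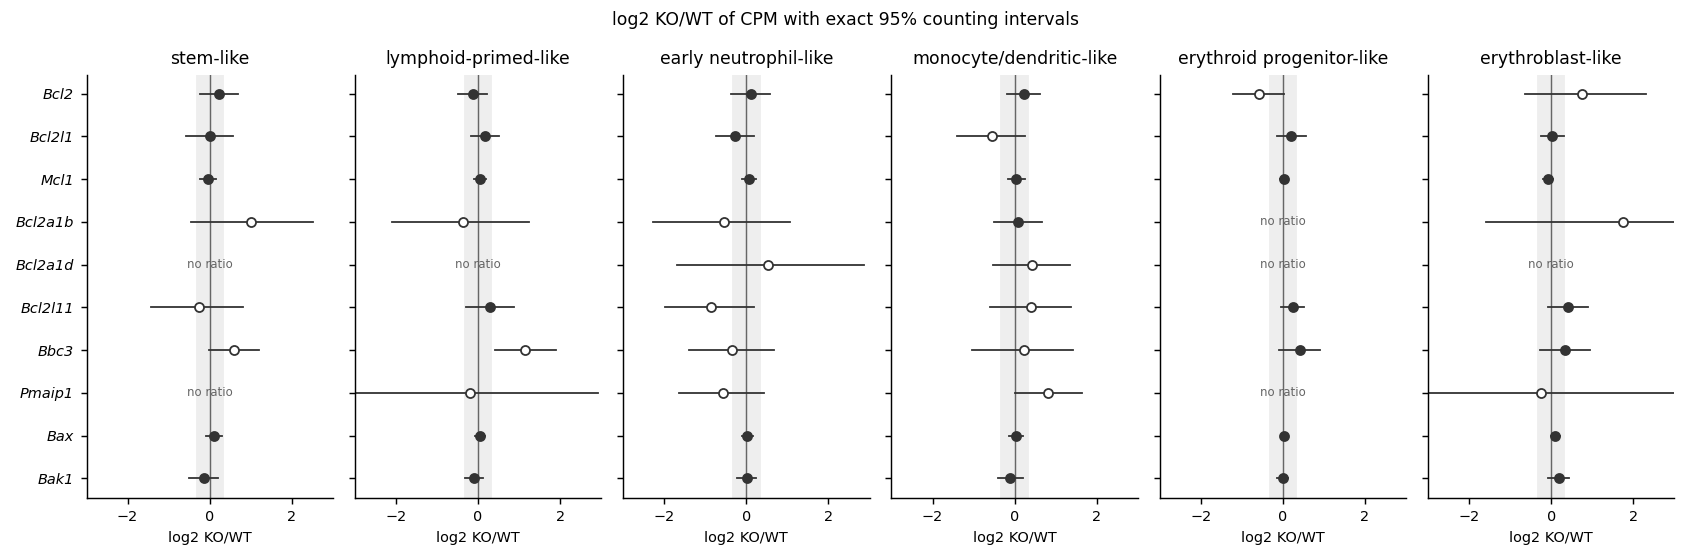
Log2 KO/WT of CPM (x axis, from -3 to 3) for the 10 genes in 6 cell types, with 95% counting intervals as lines. Filled points have at least 100 UMIs in both libraries together and open points fewer, the grey band marks log2 differences within 0.32, and rows without a ratio had 0 UMIs in a library. Filled points lie in or near the band, and Bbc3 lies to the right of 0 in 5 of the 6 panels.

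Across all 13 types there were 130 pairs of a member and a cell type, 109 of them with UMIs in both libraries, and 9 of these had an interval that left out 0, of which 6 were higher and 3 lower in KO. Of all 162794 pairs of a gene and a cell type with UMIs in both libraries, 5.75% were higher and 4.09% lower in KO by this rule, so that the members' count lay near the background. Of the 9, 5 rest on fewer than 100 UMIs. Bbc3 and Bax were most often higher in KO, in 10 and 11 of 13 types, and Mcl1 was higher in 8 of 13 and Bcl2 in 6 of 13. Only 1 interval of Bbc3 and 2 of Bax left out 0. The share of all genes that were higher in as many types is not given here. The median log2 KO/WT of all genes was itself above 0 in every type but mast/basophil-like cells, and all types share the same libraries, so these counts are a description only.

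Bbc3 gave the largest of these differences in lymphoid-primed-like cells, at 2.92 CPM in WT and 6.42 in KO (log2 KO/WT 1.14, 0.41 to 1.90). It was 1.52 (0.76 to 2.31) in female cells and 0.94 (0.06 to 1.85) with a stricter gate. With gates set on cells thinned to 8500 UMIs it was 0.34 (-0.64 to 1.35), and with clusters named by the same markers 0.62 (-0.35 to 1.60), so that the difference was not held by every way of choosing the cells. Within the KO library Bbc3 was at 8.10 CPM in 287 female cells and 2.02 CPM (2 UMIs) in 50 male cells of this type. In stem-like cells the Bbc3 ratio was 0.60 (-0.01 to 1.21), in erythroid progenitor-like cells 0.41 (-0.09 to 0.91) and in erythroblast-like cells 0.33 (-0.26 to 0.94), all including 0.

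Bcl2 differed in opposite directions in 2 of the rarer types. In lymphoid-like cells it was at 11.5 CPM (14 UMIs in 43 cells) in WT and 23.9 (29 UMIs in 62 cells) in KO, a log2 KO/WT of 1.05 (0.09 to 2.09), but -0.66 (-1.92 to 0.56) with gates on thinned cells, 0.64 (-0.64 to 2.02) with the stricter gate and 0.16 when each cell's CPM was averaged. In megakaryocyte-like cells Bcl2 was at 13.04 CPM (30 UMIs in 61 cells) in WT and 6.81 (27 UMIs in 145 cells) in KO, a log2 KO/WT of -0.94 (-1.74 to -0.14). It was -0.82 (-1.68 to 0.05) with clusters and -0.70 (-2.44 to 1.04) on thinned cells. Markers of megakaryocyte-like cells also differed, with Pf4 (8804 CPM in WT, 11489 in KO), Itga2b (229.0 and 314.7 CPM) and Vwf (76.1 and 114.7 CPM) higher in KO. Gp9 (249.4 and 229.2 CPM), Gp6 (19.6 and 15.6 CPM) and Rab27b (236.4 and 224.7 CPM) were lower, and the part of the make-up of these cells was not tested. Haemoglobin took 0.219% of WT and 1.501% of KO UMIs in these cells and 0.0813% and 0.691% in lymphoid-like cells, and its part in the differences was tested only through the totals: with UMIs of haemoglobin, of mitochondrial genes and of ribosomal proteins left out, the values were -0.94 (-1.74 to -0.14) in megakaryocyte-like and 1.05 (0.08 to 2.08) in lymphoid-like cells.

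Mcl1 was lower in KO megakaryocyte-like cells as well, at 147.8 CPM in WT and 125.6 in KO (-0.23, -0.44 to -0.03), with -0.04 (-0.45 to 0.38) on thinned cells. In mast/basophil-like cells Mcl1 was at 123.6 and 96.6 CPM (-0.36, -0.69 to -0.02), an interval that included 0 under every other way of choosing the cells. The mast cell genes Cpa3 (1166 CPM in WT, 456.6 in KO), Kit (136.0 and 59.6 CPM) and Gzmb (27.6 and 3.02 CPM) also differed there, while haemoglobin took 0.0685% and 1.16% of UMIs, and their part in the difference was not tested. Bax in macrophage-like cells, at 201.7 CPM in WT and 251.8 in KO (0.32, 0.13 to 0.51), was the only one of the 9 whose interval left out 0 under all 6 other choices of cells, with 0.22 (0.0046 to 0.44) in female cells. The median UMIs of these cells were 37151 in WT and 17168.5 in KO. With gates on cells thinned to 8500 UMIs, which leave out shallower cells, the value was 0.42 (0.0040 to 0.85). Every gate marker of this type was also higher in KO, such as C1qa (714.7 and 1183 CPM), Marco (423.4 and 672.7 CPM) and Timd4 (88.5 and 157.3 CPM). So was Hmox1, kept apart from the gate (754.7 and 1253 CPM), and the part of these shifts in the Bax difference was not tested.

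The others were Pmaip1 in monocyte/dendritic-like cells, at 7.02 and 12.4 CPM (0.82, 0.00078 to 1.64), Bax in lymphoid-like cells, at 145.5 and 186.4 CPM (0.36, 0.07 to 0.65), and Bak1 in the late neutrophil-like gate, at 38.2 and 69.7 CPM (0.87, 0.02 to 1.76). Intervals of all 3 included 0 under at least 2 other choices of cells.

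The genes around the members were described from 42 further genes of the pathway, in lists of pro-survival, BH3-only, apoptosome, caspase, inhibitor, p53 and MCL1 turnover genes. In stem-like cells 28 of the 42 had 100 UMIs, of which 3 were higher in KO past this size (among them Bnip3 and Mdm2) and 0 lower. Of all genes with as many UMIs there, 5.44% were higher and 7.33% lower by this rule. The median log2 KO/WT of the 28 was 0.05 against 0.01 for all genes. Bnip3, a mitophagy receptor, was at 17.1 CPM in WT and 24.5 in KO (0.52, 0.035 to 1.00). At the other end, Casp8, the initiator caspase of death receptors, was at 98.1 and 82.1 CPM (-0.26, -0.49 to -0.03), and Bok, a BAX-like protein, at 33.8 and 31.1 CPM (-0.12, -0.51 to 0.27).

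In lymphoid-primed-like cells 1 gene was up (Birc3) and 1 down (Bok) of 31, beside 6.33% and 3.99% of all genes. In early neutrophil-like cells 1 was up (Fbxw7) and 1 down (Casp6) of 29, beside 8.28% and 4.22%. In monocyte/dendritic-like cells 3 were up (Bcl2l12, Mdm2 and Fbxw7) and 2 down (among them Birc2) of 27, beside 8.21% and 7.88%. In erythroid progenitor-like cells 2 were up (Casp2 and Phlda3) and 0 down of 31, beside 5.43% and 2.31%. In erythroblast-like cells it was 0 of 30, beside 8.25% and 3.72%. Whether these small counts, or those of stem-like cells, differ from the shares over all genes was not tested. Bnip3l, a mitophagy receptor used when erythroid cells clear their mitochondria, was at 220.2 CPM in WT and 183.2 in KO erythroblast-like cells (-0.27, -0.34 to -0.19) and at 140.1 and 131.4 CPM in stem-like cells (-0.09, -0.28 to 0.09). Birc5, an inhibitor of apoptosis that also serves mitosis, was at 234.7 and 257.9 CPM in stem-like cells (0.14, -0.00041 to 0.27).

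Stem-like cells were also split by their mRNA of 7 proliferation genes at the median level over both libraries, which gave 150 WT and 137 KO cells below and 143 cells of each library above it. Birc5, which was not used for the split, was higher above the median in both libraries, with a log2 difference of 3.22 (2.86 to 3.60) in WT and 3.28 (2.83 to 3.76) in KO. Mcl1 was at 126.0 CPM below and 116.6 CPM above the median in WT (-0.11, -0.37 to 0.15), and at 134.6 and 106.3 CPM in KO (-0.34, -0.65 to -0.02). Bcl2 was at 24.9 and 17.8 CPM in WT (-0.48, -1.11 to 0.15) and at 30.2 and 20.75 CPM in KO (-0.54, -1.24 to 0.17).

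Bbc3 leaned the same way, at 14.2 and 8.54 CPM in WT (-0.73, -1.63 to 0.15) and 22.0 and 12.97 CPM in KO (-0.76, -1.63 to 0.11). Bcl2l1 was at 13.02 and 16.7 CPM in WT (0.36, -0.41 to 1.17) and at 14.6 and 15.6 CPM in KO (0.09, -0.83 to 1.06). Bcl2a1b had 8 UMIs below and 0 above the median in WT, and 6 and 5 in KO. Of the members, the intervals of Mcl1 in KO and Bcl2a1b in WT left out 0, so that for the others a difference between less and more proliferative stem-like cells was not detectable at this depth.

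**Figure D4:**
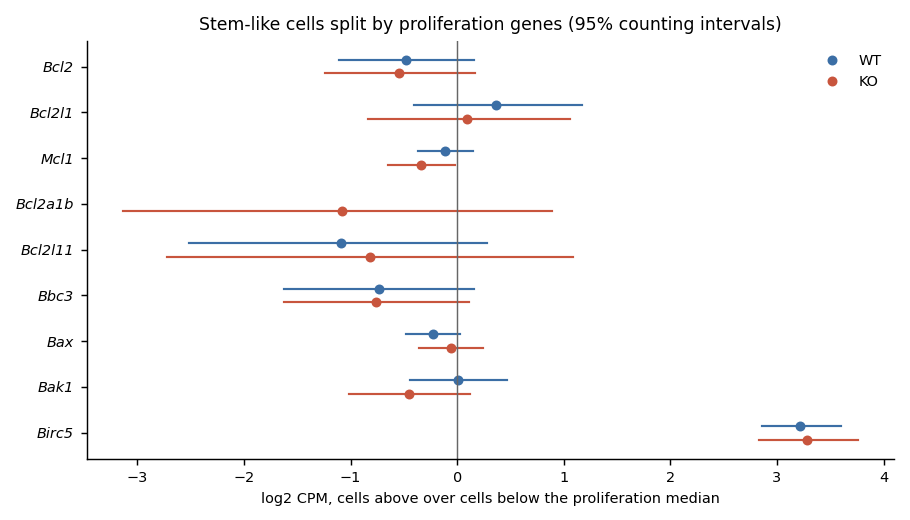
Log2 of CPM in stem-like cells above over those below the median of 7 proliferation genes (x axis), for 8 members and Birc5 (y axis), WT in blue and KO in red, with 95% counting intervals as lines; Bcl2a1b of WT has no point because it had 0 UMIs above the median, and Bcl2a1d and Pmaip1 are left out. Birc5 lies near 3.2 in both libraries, and the members lie near or below 0, apart from Bcl2l1.

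The genes whose pattern over the 26 points was most like that of a member were sought among 10774 genes, with markers, pathway and proliferation genes left out. For Bcl2 they included Fnbp1 and Gnai2 (Pearson r of log2(CPM + 1) 0.94 and 0.93), and for Bcl2a1b Fcgr1, Cd68 and Arhgap17 (0.91, 0.89 and 0.89). For Mcl1 they were Purb, Cttnbp2nl and Slc38a6 (0.88, 0.86 and 0.85), and for Bcl2l1 1810058I24Rik, E2f7 and 8030474K03Rik (0.77, 0.75 and 0.74). Bcl2 and Bcl2l1 themselves had an r of 0.16, and Bcl2 and Bak1 one of 0.70. These values describe which levels go together in points that share libraries and cell totals.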

How the data were processed

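Per the labels and the study's methods, the authors sequenced 10x Genomics 3' v3 libraries, ran Cell Ranger 6.0.0 with default settings against GRCm38 (mm10), each library on its own. They deposited whole UMI counts, which sum to 109122324 over 3840 barcodes in WT and to 100029143 over 4928 in KO. The annotation release is not given in the sources used here.

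Cells needed at least 1000 genes and no more than 20% mitochondrial UMIs (3458 WT, 4417 KO). Scrublet calls (3.90% of WT, 5.80% of KO cells) stayed in. A cell joined the type whose 81 gate markers gave the highest mean z-score of log-normalised values, if this was at least 0.5 and led by 0.3. UMIs were summed per type and library and given as CPM with exact Poisson intervals, shares with Clopper-Pearson intervals, and log2 KO/WT with the exact conditional interval. Cell types were rebuilt here and can differ from the study's. The members, lists and markers were chosen with earlier results of these data known.

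Named genes were the 10 members, Nfkbia, and, from the 42 pathway genes, those with the largest log2 KO/WT in stem-like cells (2 in each direction, at least 100 UMIs), Bnip3l and Birc5. Some genes that these rules select are not reported here. Genes counted past a log2 KO/WT of 0.32 are named beside their count, and the label genes Ly6a, Kit, Dntt, Hlf and Mmp8 as checks of the gates. Positions came from a GRCm38 annotation and promoters from RefSeq. Alternatives changed the cell filter, doublets, sex, cell type assignment (clusters, stricter gate, thinned cells), scaling, UMI minimum and proliferation split. Intervals were tested on simulated counts. Python 3.11.15, scanpy 1.11.5, scipy 1.17.1 and pandas 2.3.3 were used.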

Additional observations from a re-analysis of the deposited data

Results flagged for a closer look

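Bcl2 was marked because its KO/WT difference went opposite ways in 2 cell types under the same contrast. The log2 KO/WT was 1.05 in lymphoid-like cells (14 UMIs in WT, 29 in KO) and -0.94 in megakaryocyte-like cells (30 UMIs in WT, 27 in KO), with each interval on its own side of 0. The difference between the types was not tested, since each genotype had 1 library. The lymphoid-like value was -0.66 with gates on thinned cells, while the megakaryocyte-like value stayed below 0 in all 6 other choices of cells, from -0.97 to -0.70. Markers of megakaryocyte-like cells also differed between the libraries, and their part was not tested.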

How the results depend on the processing

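With 1 library per genotype no replicate could be left out. No paired analysis was possible because each group has 1 library. Lymphoid-like and late neutrophil-like clusters were not found, and the KO split by no proliferation UMI (5 cells) gave no value for Bcl2 and Bcl2l1, which had 0 UMIs there. Of 671 recomputed values, 611 kept their direction and stayed within the counting interval of the value given above (counts of genes: close to it), 44 moved further and 16 had the other sign, most of them on few UMIs. The cause was not tested, apart from thinning, which leaves fewer UMIs by construction.

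Without Scrublet calls, log2 KO/WT of Bcl2 in erythroblast-like cells was -0.20 and shares of 0.0759% in WT and 0.0696% in KO. With clusters named by the same markers, log2 KO/WT was -0.15 for Bcl2, -0.15 for Bbc3 and -0.045 for Bcl2l11 in erythroblast-like cells, -0.10 for Mcl1 in lymphoid-primed-like and 0.15 for Mcl1 in mast/basophil-like cells. The Bcl2 share under clusters was 8.54% in WT and 7.85% in KO lymphoid-primed-like, 8.56% in KO early neutrophil-like, 1.78% in WT erythroid progenitor-like and 0.0759% in WT and 0.0703% in KO erythroblast-like cells.

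With gates on thinned cells, log2 KO/WT of Bcl2 was 0.84 in monocyte/dendritic-like, -0.22 in erythroblast-like and -0.66 in lymphoid-like cells. For Bcl2l1 it was -0.79 in early neutrophil-like, 0.37 in monocyte/dendritic-like and 0.84 in erythroid progenitor-like cells, and for Mcl1 0.058 in erythroblast-like cells. For Bbc3 it was 0.34 in lymphoid-primed-like, -1.43 in early neutrophil-like, 1.89 in monocyte/dendritic-like and -0.34 in erythroblast-like cells. It was 2.29 for Bcl2a1b in lymphoid-primed-like, -1.92 for Bcl2l11 in monocyte/dendritic-like and 0.60 for Pmaip1 in early neutrophil-like cells, and the Bcl2 share was 12.4% in WT monocyte/dendritic-like and 3.37% in WT erythroid progenitor-like cells.

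In female cells, early neutrophil-like Bcl2a1b was at 0.077 and Bbc3 at 0.34. The stricter gate gave -0.17 for Bcl2a1b in erythroblast-like cells. The mean over cells gave 0.28 for Bcl2a1b in lymphoid-primed-like cells and a Bcl2 share of 0.412% in KO erythroblast-like cells. Pathway genes past a log2 of 0.32 numbered 7 in stem-like, 5 in lymphoid-primed-like, 7 in early neutrophil-like, 9 in monocyte/dendritic-like, 4 in erythroid progenitor-like and 2 in erythroblast-like cells with at least 20 UMIs, and 8, 7, 8, 12, 6 and 5 with 1 UMI in each library. No share over all genes is given at these minimums, so these counts are not read as a result. With median-of-ratios scaling the erythroid progenitor-like count was 1. Comparing stem-like cells with 0 and with at least 5 proliferation UMIs, thinned, log2 differences were -0.42 for Mcl1 in WT, -1.03 for Mcl1 in KO and 1.47 for Bcl2l1 in WT.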
